A study of Mus musculus with 8 samples.

Results

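The 35 genes described here encode the machinery that breaks down fatty acids in mitochondria and peroxisomes, together with peroxisome assembly and transport factors, the peroxisomal antioxidant enzyme catalase and the transcription factor PPARα. They were chosen by symbol from general knowledge of the pathway, and all 35 were found among the 47729 genes of the count table. The libraries came from whole kidneys of P8 mice, that is, mice on postnatal day 8. The knockout group of 4 libraries carried KCTD1fl/fl, a Kctd1 allele that Cre can delete, and the Six2Cre transgene, and the 4 control littermates are labelled wildtype. The Six2 promoter drives Cre in nephron progenitors, so deletion reaches the nephron epithelium and spares the collecting duct, stroma, vessels and blood of the same kidney. The sources used here do not give the strain, any treatment, the exact alleles of the controls or whether each library is a separate animal, so the p-values speak of the spread among these libraries.

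Beta-oxidation shortens fatty acyl chains by repeated cycles of dehydrogenation, hydration, dehydrogenation and thiolysis. Acyl-CoA synthetases activate the fatty acid, the carnitine shuttle carries long chains into mitochondria, and the electron transfer flavoprotein passes electrons from the acyl-CoA dehydrogenases to the respiratory chain. Peroxisomes handle very long, branched and dicarboxylic chains, and their acyl-CoA oxidases make the hydrogen peroxide that catalase removes. The proximal tubule of the kidney is rich in both organelles and draws much of its energy from fatty acids. PPARα, the nuclear receptor encoded by Ppara, binds fatty acids and switches on many genes of both pathways.

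Because PPARα binds DNA at repeats of the nuclear receptor motif AGGTCA, the 250 bases before each annotated gene start were searched for it on both strands in RefSeq promoters (GRCm38.p6). Of the 35 genes, 31 had an entry, with 36 windows, and Cpt1b, Acaa2, Decr1 and Hsd17b4 had none. The motif was in 5 of the 36 windows (13.9%), against 14.0% of all 32851 windows. The repeat AGGTCANAGGTCA, a pair of motifs with 1 base between them that overlaps the single motif, was in 0 of the 36 and in 11 (0.0335%) of all windows. A match is a description of letters and not a binding site. The 5 stretches are shown because they are the matches among these genes, with the motif in capitals and up to 12 bases on either side.
Cat: tgtgactctcagAGGTCAgagaacaccagc
Acadm: accggagcccgaAGGTCAc
Echs1: accagcccgctcAGGTCAcgggtccacccc
Acadvl: atggatcaccctAGGTCAggtagaatacag
Cpt1a: gctgcggggaggAGGTCAgtaaggaaactg
They lie at chr2:103485340-103485369 (minus strand, catalase gene), chr3:153944875-153944893 (plus strand), chr7:140116487-140116516 (minus), chr11:70015498-70015527 (minus) and chr19:3323195-3323224 (minus) of GRCm38.p6. The motif ran with the gene in Cat, 204 to 199 bases before the start, in Echs1, 83 to 78 bases before it, and in Acadvl, 87 to 82 bases before it. It ran against the gene in Acadm, 249 to 244 bases before the start, and in Cpt1a, 94 to 89 bases before it.

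For 4 of the 35 genes the annotated start lay within 100 bases of a gene that runs the other way, and the share of all genes with such a start was not computed. Hadha and Hadhb, the subunits of the mitochondrial trifunctional protein, face away from each other with 85 bases between their annotated starts (69.4% GC). The interval is shown from Hadha to Hadhb on the plus strand, beside the short intervals upstream of Pex11a and Acadsb, whose values are given below.
Hadhb and Hadha: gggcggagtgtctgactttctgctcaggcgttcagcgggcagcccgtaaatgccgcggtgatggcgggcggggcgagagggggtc
Pex11a and Wdr93: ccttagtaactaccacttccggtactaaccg
Acadsb and Ikzf5: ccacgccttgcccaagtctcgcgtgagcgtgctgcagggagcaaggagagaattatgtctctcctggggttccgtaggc
They occupy chr5:30155163-30155247 (plus strand), chr7:79743132-79743162 (minus strand, 31 bases, 48.4% GC) and chr7:131410522-131410600 (plus strand, 79 bases, 60.8% GC) of GRCm38.p6.

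Libraries held 14457760 to 20741076 counts, 14457760 to 20066225 in knockout and 14957478 to 20741076 in wildtype. Kctd1 stood at 22.4, 25.4, 25.8 and 23.5 CPM (the count relative to the scaled library size) in the knockout libraries, in order of replicate number, against 32.1, 28.9, 32.6 and 32.6 in the wildtype ones. It had a log2 fold change of -0.38 ± 0.09 (SE; edgeR adjusted p = 0.279), and these gene totals do not separate the deleted part of the gene. Knockout 2 stood apart with 5.391% of its counts on a ribosomal RNA row (0.361% to 1.141% elsewhere). 1 library of each group, knockout 2 and wildtype 3, held abundant Xist reads, and the others held at most 151. Proximal tubule markers, read as a check of the kidney label, summed to 6047 to 6322 CPM in knockout and 6063 to 6330 CPM in wildtype (ratio of means 0.999). The sum hides opposite differences of single genes. Of the 16 markers 4 were higher and 2 lower at an unadjusted edgeR p under 0.05, against 6.18% of all genes in either direction. Of the 16 edgeR called 0 after adjustment, and DESeq2 called 1 higher (Slc13a3) and 1 lower (Gatm). Distal convoluted tubule markers summed to 455 to 543 against 796 to 868 CPM and podocyte markers to 646 to 825 against 842 to 1020 CPM. Intercalated cell markers (263 to 291 against 227 to 259 CPM) did not overlap either, nor did macrophage markers (88.5 to 93.6 against 93.9 to 100 CPM). Gene by gene, 5 of 6 distal convoluted tubule markers and 2 of 5 podocyte markers (Nphs1 and Podxl) did not overlap, against 4.03% of all genes. The same held for 1 of 5 intercalated markers (Foxi1) and 1 of 5 macrophage markers (Csf1r). Podxl made up most of the podocyte sum, and edgeR called 0 of the 5 podocyte markers. Csf1r made up most of the macrophage sum, and 2 of the 5 macrophage markers had log2 fold changes above 0. The part of these cell types in the results below was not tested. In these bulk samples fewer cells of a type and less RNA per cell cannot be told apart.

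None of the 35 genes differed between knockout and wildtype kidneys past the threshold (edgeR's quasi-likelihood test, adjusted by Benjamini-Hochberg over all genes). All 35 passed the filter on low counts, and 0 had an adjusted p under 0.05 by edgeR or by DESeq2, against a background of 15 of all 18548 genes tested (0.0809%) by edgeR and 0.86% by DESeq2. At an unadjusted edgeR p under 0.05 there were 2 of 35, Ehhadh and Pex11a, both higher in knockout, where 6.18% of all genes reached that level in either direction and 3.11% in this one. The groups did not separate for any of the 35 genes (0 of 35, against 4.03% of all genes). Log2 fold changes ran from -0.33 to 0.36 with a median of 0.04, against a median of 0.00 over all genes, and 21 were positive and 14 negative (60.0% positive, against 50.3% of all genes). The median absolute log2 fold change was 0.09, against 0.08 in the 11165 genes of like level. Summed over the 35 genes, the mean CPM was 5425 ± 409 for knockout libraries and 5424 ± 223 for wildtype libraries (SD over 4 libraries each).

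The measurements bound most of the differences to a narrow range. The 95% interval of the log2 fold change lay within 1.5-fold either way for 30 of the 35 genes and within 2-fold for all 35. The 5 wider ones belonged to Ppara, Cpt1b, Acadsb, Acox2 and Ehhadh. The SD of log2 CPM between libraries of a group had a median of 0.14 over the 35 genes, against 0.15 in genes of like level. It was lowest for Hsd17b4 (0.07) and highest for Ppara (0.51). In simulated counts the test recovered 23.9% of genes changed 1.5-fold and 70.1% of those changed 2-fold. The changed genes there were drawn from a wider range of levels than that of the 35, so these rates are not specific to the 35. A miss alone does not show that levels were alike.

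**Figure D1:**
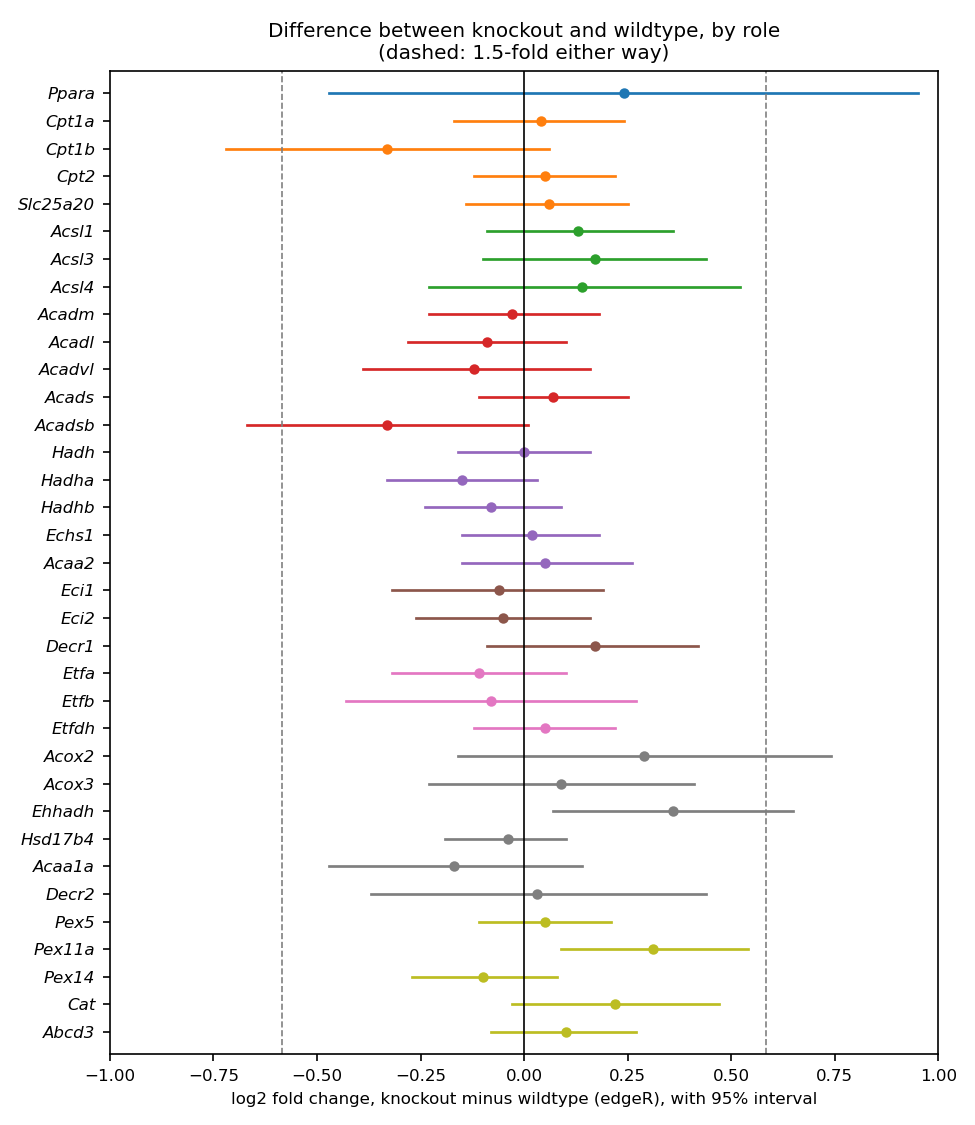
Log2 fold change of each gene (knockout minus wildtype, horizontal axis) with its 95% interval as a line, coloured by role, and dashed lines at 1.5-fold either way. The intervals of Ehhadh and Pex11a lie above 0, and 30 of 35 intervals lie inside the dashed lines.

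Levels are compared between genes in TPM, the deposited transcript abundance relative to transcript length and library. The mean over the 8 libraries ran from 4.29 TPM for Ppara to 770 TPM for Etfb, with a median of 39.2. There were 9 genes at 100 TPM or more, all of the mitochondrial pathway but for the peroxisomal thiolase gene Acaa1a (106 TPM). The 5 highest held 53.4% of the summed TPM: Etfb, then Acadm with 260, Hadha with 229, Etfa with 166 and Hadhb with 165 TPM. Acadvl (121), Acaa2 (111) and Hadh (105) followed, and their ranges over libraries overlapped one another. At the lower end stood Acox2 (4.90), Pex11a (8.38), Acox3 (10.1) and Pex14 (11.7 TPM). The lead of Etfb was not seen in CPM, where it ranked 7 of 35, and its CPM to TPM ratio was 0.115 of the median gene's. That ratio reflects the length assigned to a gene when TPM was computed, which depends on the transcripts its reads were given to. The GENCODE transcripts of Etfb are 343 to 893 bases long. Overlapping reads from Gm45233 and Mir7051 on the same strand could also enter its total. Acadm, Hadha, Hadhb and Etfa had ratios of 0.399, 0.422, 0.451 and 0.519 of the median gene's, so their TPM ranks depend on the assigned length too. These ratios do not mark short genes as such, since Hadha and Hadhb have GENCODE transcripts of up to 4017 and 4388 bases. Which transcripts the reads were given to is not known here. In CPM Hadh ranked 1 and Acsl1 ranked 2 of the 35.

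**Figure D2:**
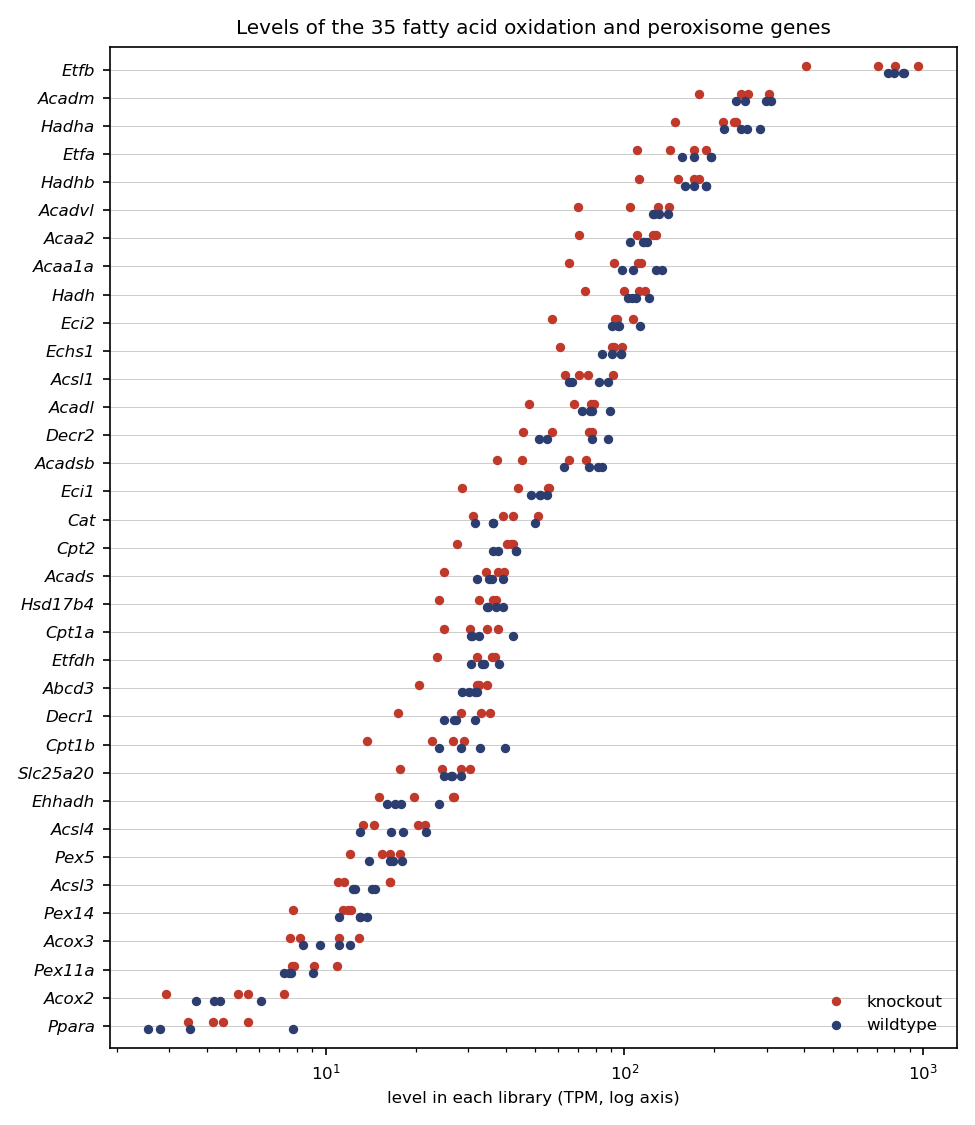
TPM of each of the 35 genes in each library (log axis), ordered by mean level, with knockout libraries in red and wildtype libraries in blue. Levels run from a mean of 4.29 TPM for Ppara to 770 TPM for Etfb, and the lowest point in 31 of 35 rows is knockout 2, the library with the most ribosomal RNA counts.

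The regulator Ppara (chr15:85734983-85802819, plus strand; coordinates here and below are GENCODE, GRCm38) was the least abundant and most variable of the 35. Knockout libraries 1 to 4 held 10.7, 10.8, 13.2 and 9.46 CPM, and wildtype libraries 1 to 4 held 6.33, 8.35, 5.85 and 16.7, an order kept in all sentences below. The 4 knockout libraries were close together, and wildtype 4 lay above all of them while the other wildtype libraries lay below. Its log2 fold change was 0.24 ± 0.31 (SE; edgeR adjusted p = 0.950). Without wildtype 4 it was 0.69 ± 0.18, still short of the threshold (edgeR adjusted p = 0.419).

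In the carnitine shuttle, which moves long acyl chains across the mitochondrial membranes, 3 of 4 genes had log2 fold changes of 0.04 to 0.06 and Cpt1b had -0.33. Cpt2, the carnitine palmitoyltransferase of the inner membrane and the most abundant of the group at 39.2 TPM, measured 120, 105, 118 and 116 CPM in knockout and 104, 105, 121 and 113 in wildtype. The libraries of the groups were interleaved. Cpt1a, the rate-limiting outer-membrane isoform of kidney and liver (33.1 TPM), averaged 281 ± 19.0 and 273 ± 33.8 CPM (SD, n = 4 each). Slc25a20, the carnitine-acylcarnitine carrier, averaged 84.1 ± 10.3 and 80.7 ± 1.35 CPM.

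Cpt1b (chr15:89416405-89425863, minus strand), the isoform of muscle and brown fat, was examined after its values were seen. It measured 49.2, 39.3, 64.0 and 54.8 CPM in knockout and 58.9, 52.5, 83.7 and 65.0 CPM in wildtype, so the ranges overlapped (log2 fold change -0.33 ± 0.17 SE; edgeR adjusted p = 0.842). Ucp1, the uncoupling protein that defines brown fat, measured 15.1, 50.7, 127 and 100 CPM in knockout and 33.8, 30.9, 114 and 92.6 CPM in wildtype, and within each group the library with the most Ucp1 had the most Cpt1b. All 8 adipocyte markers together summed to 242 to 560 CPM in knockout and 258 to 440 in wildtype, with Adipoq at 4.90 to 15.2 CPM and no marker at 0 in any library. With the Ucp1 level as a covariate, chosen after seeing the data, Cpt1b had a log2 fold change of -0.313 (edgeR adjusted p = 0.776). Without wildtype 3 the value was -0.184, and without both libraries with Xist reads -0.072. Skeletal muscle markers summed to 2.27 to 3.86 CPM. A readthrough gene, Gm44502, overlaps its exons on the same strand, and the sources used here do not give how reads were divided between them.

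**Figure D3:**
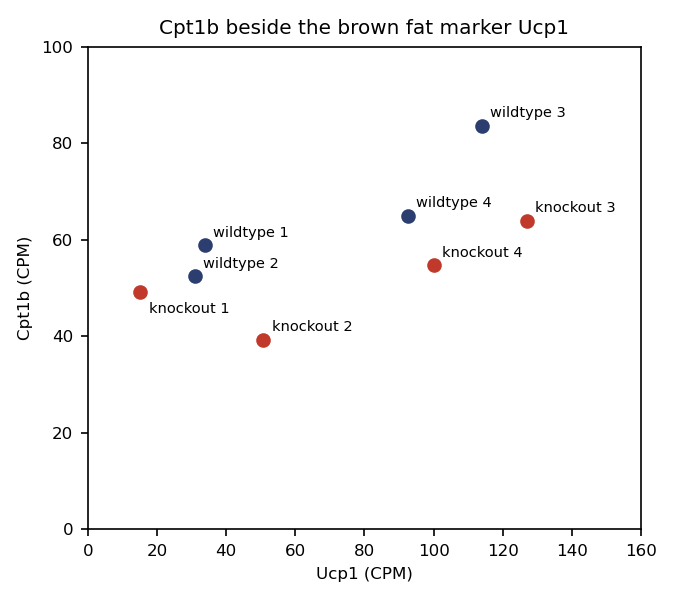
Cpt1b (vertical axis, CPM) against the brown fat marker Ucp1 (horizontal axis, CPM) in each library, knockout in red and wildtype in blue. The wildtype libraries stand in the same order for both genes, and among the knockouts library 1, with the least Ucp1, is not the lowest in Cpt1b, which is library 2 at 39.3 CPM.

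The acyl-CoA synthetases, which activate fatty acids, had 3 of 3 log2 fold changes above 0, the median being 0.14. Acsl1, the long-chain synthetase of oxidative tissues, measured 307, 364, 334 and 377 CPM in knockout and 277, 284, 347 and 350 in wildtype. Wildtype 1 and wildtype 2 were lower than every knockout library and the other wildtype libraries were not (log2 fold change 0.13 ± 0.10 SE; edgeR adjusted p = 0.916). Acsl3 averaged 65.3 ± 9.23 and 58.1 ± 6.95 CPM, and the X-linked arachidonate-preferring Acsl4 averaged 70.9 ± 13.1 and 64.1 ± 12.7 CPM.

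Of the acyl-CoA dehydrogenases, which start each mitochondrial cycle, 1 of 5 had a log2 fold change above 0 and 4 below it, the median being -0.09. Acadm, the medium-chain enzyme and the second most abundant of the 35 genes, measured 292, 280, 314 and 346 CPM in knockout and 288, 284, 345 and 337 in wildtype (log2 fold change -0.03 ± 0.09 SE; edgeR adjusted p = 0.986). Those ranges coincided. The long-chain Acadl averaged 244 ± 25.3 and 260 ± 17.7 CPM, the very-long-chain Acadvl 244 ± 46.8 and 264 ± 16.0 CPM, and the short-chain Acads 107 ± 10.8 and 102 ± 4.41 CPM (SD, n = 4 each). Exons of Dvl2 overlap those of Acadvl on the opposite strand, and the sources used here do not give whether the counting used strand.

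Acadsb, which oxidises short branched chains from isoleucine, was also picked out after its values were seen. It measured 127, 84.8, 78.9 and 106 CPM in knockout and 137, 131, 104 and 127 CPM in wildtype, and 2 knockout libraries lay below every wildtype library. Its log2 fold change of -0.33 ± 0.15 (SE) had a 95% interval of -0.67 to 0.01 (edgeR adjusted p = 0.814, DESeq2 adjusted p = 0.653). Ikzf5, on the other side of the 79-base interval shown above, had a log2 fold change of -0.21 ± 0.14 (edgeR adjusted p = 0.898).

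The genes of the hydration, dehydrogenation and thiolysis steps had 5 log2 fold changes between -0.15 and 0.05 with a median of 0.00. Hadha, the trifunctional protein subunit with hydratase and dehydrogenase activity, measured 268, 247, 303 and 278 CPM in knockout and 296, 274, 315 and 328 CPM in wildtype. Its ranges overlapped, with knockout 2 and wildtype 2 the lowest of their groups (log2 fold change -0.15 ± 0.08 SE; edgeR adjusted p = 0.852). Hadhb, the thiolase subunit across the shared 85-base interval, measured 203, 200, 233 and 227 CPM in knockout and 220, 217, 245 and 229 in wildtype (log2 fold change -0.08 ± 0.07 SE; edgeR adjusted p = 0.939). In both genes knockout 2 was the lowest and knockout 3 the highest knockout library. Hadh averaged 337 ± 25.9 and 336 ± 14.1 CPM, the short-chain hydratase gene Echs1 179 ± 15.3 and 177 ± 8.23 CPM, and the thiolase gene Acaa2 295 ± 39.4 and 284 ± 8.65 CPM.

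The 3 auxiliary enzymes for unsaturated chains had log2 fold changes of -0.06 to 0.17. Eci2, an enoyl-CoA isomerase found in mitochondria and peroxisomes, measured 109, 87.4, 109 and 117 CPM in knockout and 106, 105, 106 and 119 CPM in wildtype (log2 fold change -0.05 ± 0.09 SE; edgeR adjusted p = 0.970). Knockout 2 and wildtype 4 were the extremes and the other 6 libraries lay between 105 and 117 CPM. Eci1 averaged 83.1 ± 14.8 and 86.8 ± 1.08 CPM, and the dienoyl-CoA reductase gene Decr1 averaged 161 ± 27.2 and 144 ± 8.55 CPM.

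The electron transfer genes had a median log2 fold change of -0.08. Etfb measured 243, 185, 337 and 262 CPM in knockout and 282, 276, 287 and 239 CPM in wildtype, with the lowest and the highest value both in knockout (log2 fold change -0.08 ± 0.16 SE; edgeR adjusted p = 0.970). Its partner subunit Etfa averaged 248 ± 29.3 and 267 ± 22.2 CPM, and Etfdh, the ubiquinone oxidoreductase, 140 ± 11.7 and 135 ± 6.73 CPM. Over the 20 mitochondrial genes from the shuttle to electron transfer, 9 log2 fold changes were positive and 11 negative, with a median of -0.04.

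The peroxisomal side held both genes under an unadjusted p of 0.05. Of its 11 genes 8 had log2 fold changes above 0 and 3 below, the median being 0.09. Ehhadh (chr16:21761287-21787807, minus strand), the peroxisomal bifunctional enzyme for dicarboxylic acids and a classical PPARα target, measured 153, 114, 115 and 145 CPM in knockout and 97.8, 98.0, 89.1 and 125 CPM in wildtype. Every knockout library lay above wildtype 1 to 3, and wildtype 4 lay inside the knockout range. Means were 132 ± 20.4 and 102 ± 15.6 CPM (SD, n = 4 each). The log2 fold change of 0.36 ± 0.13 (SE; 95% interval 0.07 to 0.65, or 1.05-fold to 1.57-fold) had an edgeR p of 0.0195, a Benjamini-Hochberg adjusted p of 0.677 and a DESeq2 adjusted p of 0.387. Knockout 1, the highest library here, was also the highest of the 8 for Acsl3, Acsl4, Acox2 and Hsd17b4, and without it the value for Ehhadh was 0.28 (edgeR adjusted p = 0.792).

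Pex11a (chr7:79735957-79743131, minus strand), an inducible peroxisome division factor and also a PPARα target, measured 33.3, 37.1, 29.0 and 37.7 CPM in knockout and 26.4, 26.6, 27.1 and 30.1 CPM in wildtype. Only wildtype 4 and knockout 3 crossed. Means were 34.3 ± 4.02 and 27.6 ± 1.76 CPM, with a log2 fold change of 0.31 ± 0.10 (SE; 95% interval 0.09 to 0.54). The edgeR p was 0.0106, with a Benjamini-Hochberg adjusted p of 0.587 and a DESeq2 adjusted p of 0.302. The gene on the other side of its 31-base upstream interval, Wdr93, was barely detected (0.69 to 1.78 CPM; log2 fold change -0.28 ± 0.30, edgeR adjusted p = 0.942).

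Catalase (Cat, chr2:103453849-103485160, minus strand) measured 195, 190, 184 and 225 CPM in knockout and 161, 147, 163 and 212 CPM in wildtype. Wildtype 1 to 3 lay below all knockout libraries and wildtype 4 lay within them (log2 fold change 0.22 ± 0.11 SE; edgeR adjusted p = 0.841). Acaa1a, the peroxisomal thiolase and the most abundant gene of its group, measured 150, 116, 155 and 118 CPM in knockout and 165, 145, 175 and 120 in wildtype. Its ranges overlapped widely (log2 fold change -0.17 ± 0.14 SE; edgeR adjusted p = 0.925). Acaa1a is uncertain, since the near-identical Acaa1b can share its reads and exons of Myd88 overlap it on the opposite strand.

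For the other 7 peroxisomal genes the groups overlapped. Acox2, the branched-chain acyl-CoA oxidase of bile acid synthesis, averaged 14.5 ± 3.84 and 11.8 ± 2.27 CPM, a log2 fold change of 0.29 with a 95% interval of -0.16 to 0.74. Acox3 averaged 53.5 ± 10.1 and 50.3 ± 6.23 CPM (SD, n = 4 each). Hsd17b4, the D-bifunctional enzyme, averaged 159 ± 9.80 and 164 ± 4.04 CPM, and the reductase gene Decr2 averaged 53.1 ± 7.25 and 51.9 ± 13.7 CPM. Pex5, the import receptor for matrix enzymes, averaged 85.1 ± 3.30 and 82.1 ± 5.46 CPM, and its docking partner Pex14 averaged 41.5 ± 2.67 and 44.5 ± 2.48 CPM. Abcd3, the transporter of branched-chain acyl-CoA and an abundant protein of the peroxisomal membrane, averaged 199 ± 17.6 and 186 ± 11.2 CPM. For these 7 genes the edgeR adjusted p was 0.910 or more.

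**Figure D4:**
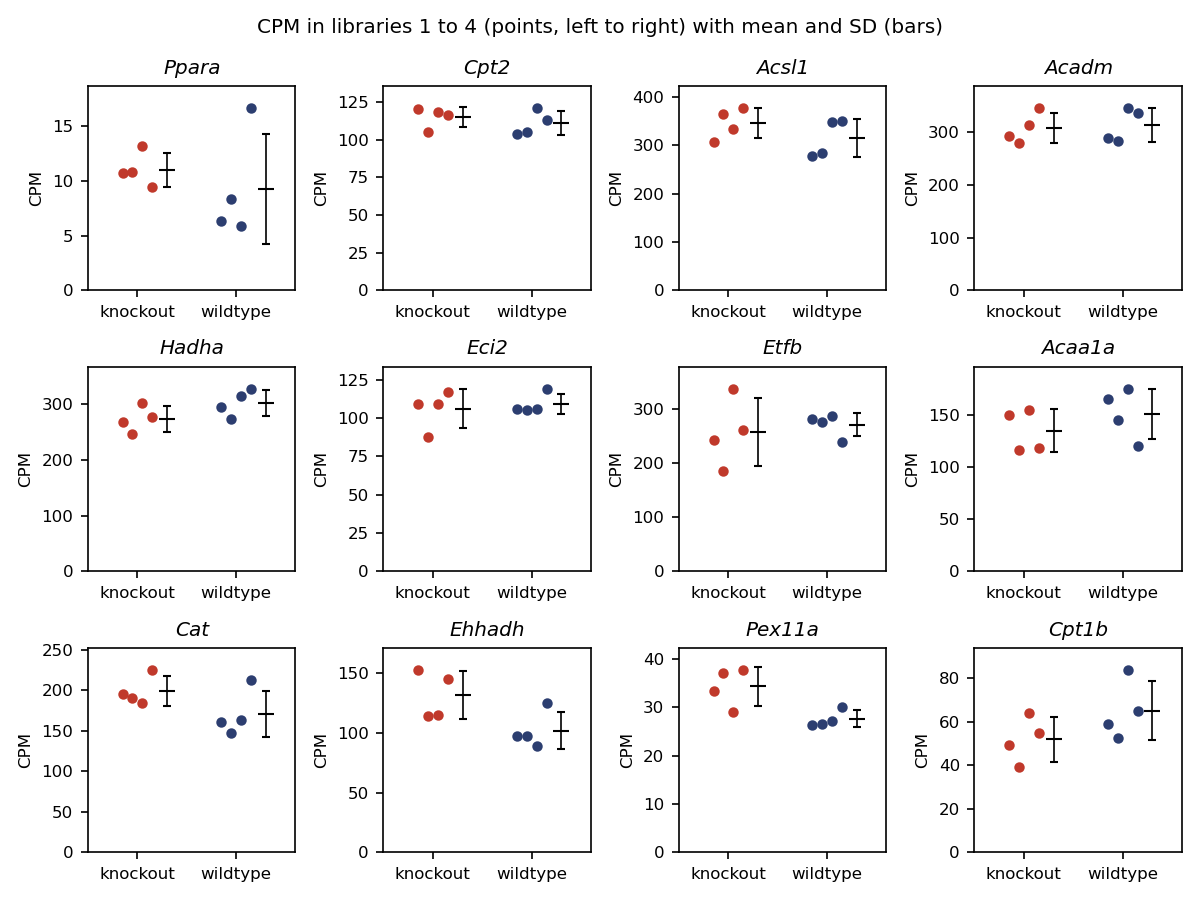
CPM of 12 genes in each library (points, libraries 1 to 4 from left to right; knockout red, wildtype blue) with the group mean and SD as bars, on axes that start at 0. In the panels of Ppara, Cat, Ehhadh and Pex11a, wildtype 4 is the highest wildtype library and reaches into or above the knockout range.

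The same library recurred across the wildtype group. Wildtype 4 was the highest of the 4 wildtype libraries for 18 of the 35 genes, where it was the highest for 26.6% of genes of like level, and wildtype 2 was the lowest for 18 (23.5% of like genes). Without wildtype 4, the groups did not overlap for 4 of the 35 genes, Ppara, Ehhadh, Pex11a and Cat, all higher in knockout, against 7.52% of all genes in that fit. Their log2 fold changes were then 0.69, 0.47, 0.36 and 0.34, with edgeR adjusted p of 0.419, 0.386, 0.536 and 0.391. In each of them only wildtype 4 among the wildtypes was not below every knockout library, so removing it separates the groups by construction. Leaving out any other 1 library gave 0 or 1 of the 35 genes without overlap, against 6.4% to 8.6% of all genes. Without wildtype 2 it was Pex14, lower in knockout. Among the knockouts, knockout 2 was the lowest of all 8 libraries for 18 of 35 genes (51.4%), where 21.5% of like genes had their lowest value there, and it was the highest for 0. The median deviation of the 35 genes from their 8-library mean was -0.14 (log2) in knockout 2, 0.07 in knockout 3 and 0.08 in knockout 4. The part that its ribosomal RNA share plays was not tested. Without knockout 2 the median log2 fold change over the 35 genes was 0.063, and of the 35 Abcd3 alone had groups without overlap, against 6.67% of all genes. Without both libraries with Xist reads it was 0.079, with Cpt2 and Abcd3 not overlapping, against 10.9% of all genes.

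**Figure D5:**
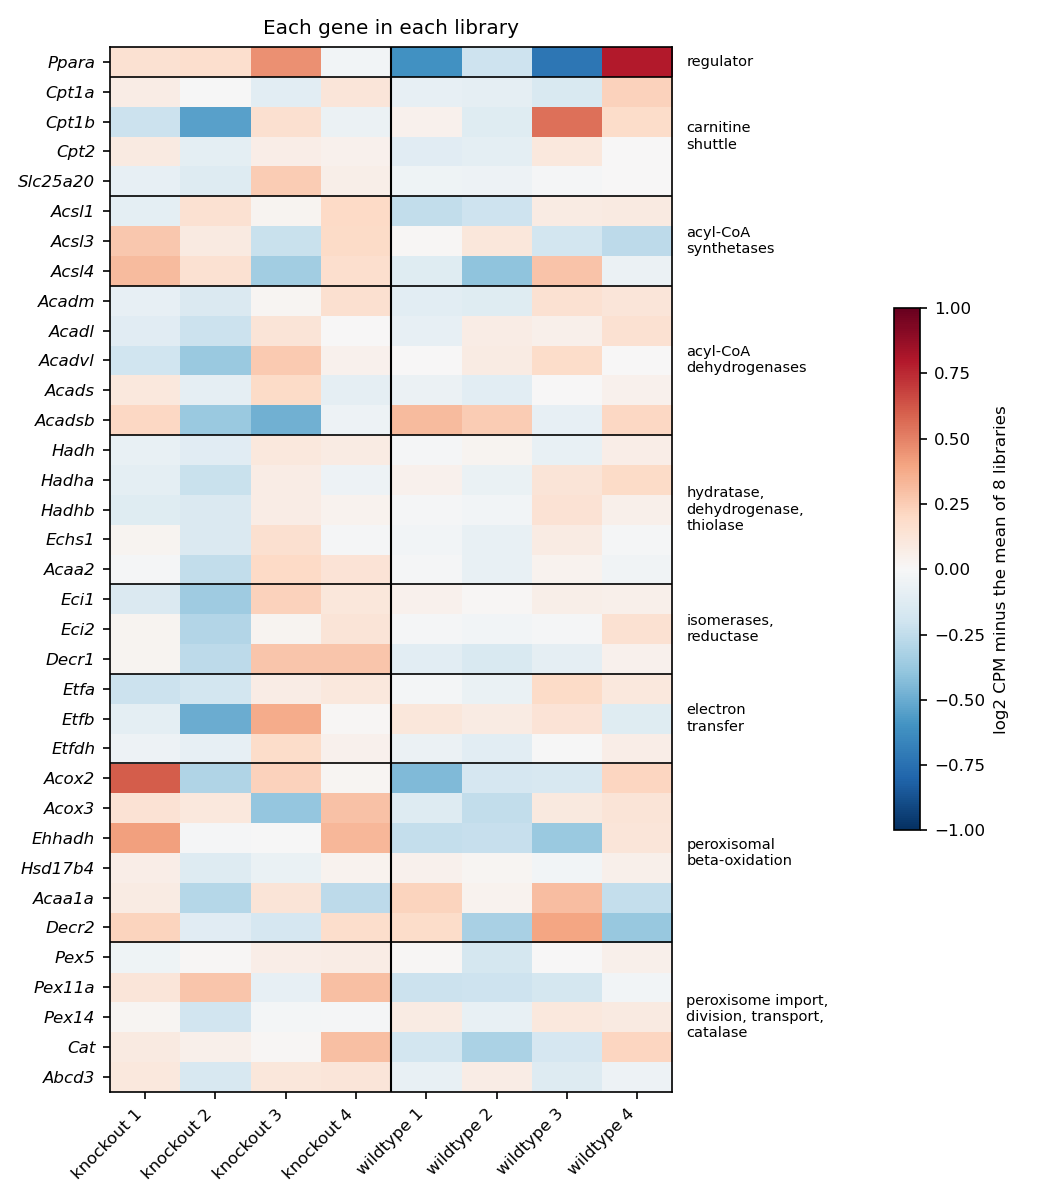
Log2 CPM of each of the 35 genes in each library minus the mean of the 8 libraries (colour scale from -1 to 1), with rows grouped by role and knockout libraries to the left of the line. Knockout 2 is blue in most rows, with a median of -0.14, and no block of rows separates knockout from wildtype.

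The rest of the pathway outside the 35 genes was read from 10 lists of 162 genes, 158 of them tested. For the counts in all these lists, the share of all genes with an edgeR p under 0.05 before adjustment was 6.18%. Groups were without overlap for 4.03% of all genes, and log2 fold changes were above 0 for 50.3%. After adjustment 0.0809% of all genes were called by edgeR and 0.86% by DESeq2. Among 28 tested genes of other activation, carnitine and oxidation steps, edgeR and DESeq2 each called 0, with 3 higher and 2 lower at an edgeR p under 0.05 before adjustment (median log2 fold change 0.03). Acaa1b, the inducible paralog of Acaa1a, measured 197, 151, 180 and 180 CPM in knockout and 140, 141, 146 and 141 CPM in wildtype, so the groups did not overlap. Its log2 fold change was 0.32 ± 0.08 (SE; edgeR adjusted p = 0.382, DESeq2 adjusted p = 0.0697), with the shared-read limit given above. Acacb, the acetyl-CoA carboxylase whose product malonyl-CoA inhibits the carnitine shuttle, measured 47.6, 41.2, 34.4 and 44.4 CPM in knockout and 31.5, 19.6, 32.1 and 31.4 in wildtype (edgeR adjusted p = 0.516), also without overlap. The 2 lower genes were without overlap as well, and they and Slc27a2 were added after their values were seen. Acad9, an acyl-CoA dehydrogenase and complex I assembly factor, measured 53.4, 52.0, 55.3 and 49.0 CPM in knockout and 56.6, 62.7, 67.1 and 56.7 in wildtype (edgeR adjusted p = 0.706). The synthetase gene Acsl5 measured 118, 109, 130 and 126 CPM in knockout and 134, 136, 140 and 131 in wildtype (edgeR adjusted p = 0.790). The third higher gene, the fatty acid transporter and very-long-chain synthetase gene Slc27a2, measured 432, 402, 447 and 470 CPM in knockout and 350, 353, 344 and 447 in wildtype, with wildtype 4 inside the knockout range (edgeR adjusted p = 0.753).

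Of 13 tested PPARα targets outside the 35 genes, edgeR and DESeq2 each called 0, with 1 higher at an edgeR p under 0.05 before adjustment. Their median log2 fold change was 0.10, with 10 positive and 3 negative, where 50.3% of all genes were positive. The 3 negative ones were Pdk4 (-0.25), Angptl4 (-0.22) and Slc27a1 (-0.14), with edgeR adjusted p of 0.846 or more. Cyp4a14, a fatty acid omega-hydroxylase, measured 277, 144, 172 and 238 CPM in knockout and 134, 131, 126 and 151 CPM in wildtype, with knockout 2 inside the wildtype range (log2 fold change 0.62 ± 0.19 SE; edgeR adjusted p = 0.570, DESeq2 adjusted p = 0.0765). Cyp4a10 measured 160, 131, 144 and 135 CPM in knockout and 118, 92.3, 86.5 and 153 CPM in wildtype, with wildtype 4 again the highest of its group (edgeR adjusted p = 0.837). Wildtype 4 was the highest wildtype library for 9 of these 13 genes, against 26.6% of genes in the CPM range of the 35. Knockout 2 was the lowest knockout library for 9 of the 13, against 30.6% of the genes in that range. The Cyp4a genes form a family of close copies, so reads shared between them are uncertain. The summed CPM of the 6 hepatocyte markers was 140 to 263 in knockout and 125 to 158 in wildtype. Most of it came from Ttr and Serpina1a. Ttr measured 107 to 194 CPM in knockout and 73.2 to 99.9 in wildtype, and Serpina1a averaged 46.7 and 52.2 CPM. Ttr had a log2 fold change of 0.87 (edgeR adjusted p = 0.211, DESeq2 adjusted p = 2.8e-04), and Serpina1a one of -0.16. The highest Ttr was in knockout 4, where Alb measured 1.39 CPM. Alb measured 31.7 CPM in knockout 1 and 0.0982 to 1.56 CPM in the others, and Ahsg was at 0 in some libraries and at most 1.76 CPM. Knockout 1 was also the highest library for Cyp4a14, whose log2 fold change without it was 0.446, and for Acaa1b, with 0.26 without it. The part of hepatocyte RNA in the levels of these genes was not tested.

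Other peroxisome genes gave few differences. Of 21 assembly and membrane genes edgeR and DESeq2 each called 0, with 1 higher and 1 lower at an edgeR p under 0.05 before adjustment, and the median log2 fold change was 0.01. The 2 were the membrane protein gene Pxmp4, with 68.5 to 76.6 CPM in knockout against 61.2 to 65.9 in wildtype (edgeR adjusted p = 0.588), and Pex7, the import receptor for amino-terminal signals, with 23.5 to 37.9 against 38.3 to 40.2 CPM (edgeR adjusted p = 0.790). Of 14 other matrix enzymes 12 had log2 fold changes above 0 (median 0.08), where 50.3% of all genes did. By either tool 0 of them passed, with 2 higher at an edgeR p under 0.05 before adjustment. Idh1, the NADP-dependent isocitrate dehydrogenase of cytosol and peroxisome, measured 319, 285, 331 and 303 CPM in knockout and 265, 274, 236 and 251 CPM in wildtype (log2 fold change 0.27 ± 0.07 SE; edgeR adjusted p = 0.403, DESeq2 adjusted p = 0.0710). The groups did not overlap. Far1, the reductase of ether lipid synthesis, measured 170 to 181 against 154 to 168 CPM (edgeR adjusted p = 0.798).

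Ketone body genes, which use the product of beta-oxidation, numbered 7. Of these edgeR and DESeq2 each called 0, with 1 lower at an edgeR p under 0.05 before adjustment (median log2 fold change -0.01). This was Bdh1, which interconverts acetoacetate and hydroxybutyrate, with 42.5, 43.8, 34.2 and 32.0 CPM in knockout and 55.1, 47.0, 51.9 and 40.6 in wildtype (edgeR adjusted p = 0.696). Oxct1, the enzyme that activates ketone bodies for use, averaged 410 ± 43.4 and 444 ± 11.5 CPM (edgeR adjusted p = 0.910). Among 18 partners and other regulators 0 passed by either tool and 1 was lower at an edgeR p under 0.05 before adjustment, and 9 log2 fold changes lay above 0 and 9 below. The coactivator gene Ppargc1b measured 8.86, 11.0, 9.80 and 9.61 CPM in knockout and 11.7, 12.8, 13.7 and 11.5 in wildtype (edgeR adjusted p = 0.652), and the tubular nuclear receptor gene Hnf4a averaged 234 ± 8.41 and 210 ± 19.4 CPM (edgeR adjusted p = 0.829).

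Of the 10 lists, only that of uptake and binding held genes that passed, where 1 of 7 tested genes rose and 1 fell. Over all genes 15 of 18548 (0.0809%) passed by edgeR. Fabp3, the heart-type fatty acid binding protein, fell from 111, 112, 115 and 113 CPM in wildtype to 62.5, 56.3, 78.4 and 63.5 CPM in knockout (log2 fold change -0.79 ± 0.10 SE; edgeR adjusted p = 0.0136). Lipg, endothelial lipase, rose from 8.16, 7.48, 8.06 and 9.38 CPM to 33.8, 26.9, 17.6 and 19.7 CPM (log2 fold change 1.56 ± 0.20 SE; edgeR adjusted p = 0.0171). The groups of both genes were well apart. Both calls ended without both libraries with Xist reads (edgeR adjusted p = 0.126 for Fabp3 and 0.230 for Lipg), and leaving out wildtype 1, wildtype 2 or wildtype 3 alone also ended both (edgeR adjusted p = 0.0550 to 0.0751 and 0.0871 to 0.111). Leaving out knockout 1 or knockout 4 ended that of Fabp3 (edgeR adjusted p = 0.0674 and 0.0671), and leaving out knockout 2 that of Lipg (edgeR adjusted p = 0.0652). Both genes were known from earlier results of these data before the lists were chosen. Their count in this list therefore does not show where in the pathway differences lie.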

How the data were processed

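RNA-seq libraries of 8 whole kidneys were made from total RNA with a strand-specific kit, per the labels' protocols. The submitters' processing notes name Salmon, DESeq2 1.14.1 and the mm10 build. No Salmon version, annotation release or strand setting was found there (not given in the sources used here). Deposited by the authors were estimated counts per gene as whole numbers, and TPM per gene with symbols. The count table carries no names, so identifiers were taken in file order from the TPM table, 1 for each of the 47729 rows, and checked on 13251 genes (median SD over libraries of log2 count minus log2 TPM 0.000745, against 0.281 with rows shifted). No 2 libraries of a group agreed within sampling noise (pairs across groups were not compared). All value columns were used.

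Genes were filtered with filterByExpr (18548 kept), scaled with TMM and compared with edgeR 4.0.16 in R 4.3.3 by its quasi-likelihood test (robust, genotype alone, two-sided) with Benjamini-Hochberg adjustment over all tested genes and a threshold of 0.05. The biological coefficient of variation was 20.7%. CPM values are TMM-scaled. Each SE is the size of the log2 fold change over the square root of F, and 95% intervals use the test's degrees of freedom. In simulated counts for 18176 genes, 95.6% of such intervals held the true value and 3 of 126 calls fell on unaltered genes. Genes of like level are the 11165 with mean CPM in the range of the 35.

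The 35 genes, the pathway and marker lists and the tests were chosen with earlier results of these data known. Among the 35, values in every library are given for Ppara, for genes with an unadjusted p under 0.05, for the gene with the highest TPM in each role, and for genes with no overlap between groups. Up to 4 genes past the threshold, or otherwise up to 2 with the smallest p, are named per pathway list. For 1 list a gene so picked is left out and not reported here. Any other gene given library by library, or named outside these rules, was chosen after its values were seen. Alternatives were other scaling, no filter, a minimum of 1 CPM in 4 libraries, limma-voom (limma 3.58.1), DESeq2 1.42.0, a replicate block, limma fits of log2 TPM with pseudocounts of 1 and 0.1, libraries left out, and the Ucp1 level as a covariate. The sources used here do not say whether replicate numbers pair the samples. Promoter sequences are RefSeq, GRCm38.p6, and protein sequences were not used here.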

Additional observations from a re-analysis of the deposited data

Results flagged for a closer look

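Among 110 sets of 4 libraries, 7 held a library far from the other 3 by Dixon's test, where chance gives about 1 in 20, or 5.5 sets. Wildtype 4 was the far library for Cpt1a, at 324 CPM against 249 to 261 in the other wildtype libraries, and for Eci2, at 119 CPM against 105 to 106. Wildtype 2 was the far one for Pex14, at 40.8 CPM against 45.4 to 46.1, and for the carboxylase gene Acacb, at 19.6 CPM against 31.4 to 32.1. Knockout 2 was the far one for Abcd3, at 172 CPM against 206 to 209. Outside the 35 genes, the elongase gene Elovl5 measured 66.1 CPM in knockout 1 against 62.3 to 62.4 in the other knockout libraries, and the lipogenic gene Thrsp measured 13.0 CPM in knockout 3 against 5.03 to 6.01.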

How the results depend on the processing

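None of the 35 genes passed under any of 18 alternatives (0 of 630 gene and alternative pairs). In 31 of these pairs, 11 of them outside the fits that leave out 1 library, the log2 fold change had the other sign, and 23 genes kept 1 sign throughout. Signs changed only for genes with a main value of at most 0.12 in size. Without both libraries with Xist reads they were Acadm (0.066), Acadvl (0.017), Eci1 (0.038), Eci2 (0.018) and Etfb (0.079). Hadh lay at -0.001 with no filter and with DESeq2, -0.002 with limma-voom and with the replicate block, -0.014 on log2(TPM + 1) and -0.0 with the Ucp1 covariate. Leaving out 1 library, the ranges that crossed 0 were -0.004 to 0.129 for Cpt1a, -0.023 to 0.109 for Slc25a20, -0.087 to 0.024 for Acadm, -0.037 to 0.036 for Hadh, -0.036 to 0.063 for Echs1, -0.01 to 0.133 for Acaa2, -0.157 to 0.032 for Eci1, -0.104 to 0.031 for Eci2, -0.238 to 0.049 for Etfb, -0.004 to 0.085 for Etfdh and -0.076 to 0.191 for Decr2. The median over the 35 genes ran from -0.01 to 0.063.

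Over all genes 27 passed with no filter, 155 with DESeq2, 3 without both libraries with Xist reads and 10 to 52 leaving out 1 library, 52 without wildtype 4 and 29 without knockout 3. Genes among the 35 without overlap numbered 2 without both libraries with Xist reads, against 10.9% of all genes. Leaving out 1 library they numbered 0 to 4, against 6.4% to 8.6% of all genes. At an unadjusted p under 0.05 there were 1 to 6 leaving out 1 library, against 5.21% to 8.33% of all genes. The 6 came without knockout 3, where the share of all genes was 8.33%. There were 5 with the replicate block and 0 on TPM, for which the share of all genes is not given here. Pex11a stayed under 0.05 in all 8 fits that leave out 1 library, and Ehhadh lost that level without knockout 1, knockout 4 or wildtype 3. Without both libraries with Xist reads Ehhadh and Decr1 were under 0.05 and Pex11a was not. Of the 2 pathway genes called, 1 was called with limma-voom, 0 with the replicate block, 0 on log2(TPM + 1) and on log2(TPM + 0.1), 0 without both libraries with Xist reads and 0 to 2 leaving out 1 library. The cause was not tested, except that leaving out libraries reduces their number. Same-numbered libraries had correlations of their deviations of 0.018, -0.081, 0.036 and 0.014, and differently numbered ones had -0.12 to 0.086. These values gave no sign that the numbers pair the libraries, but they cannot exclude a pairing. With that replicate block Fabp3 had -0.802 (edgeR adjusted p = 0.0614) and Lipg 1.518 (edgeR adjusted p = 0.114). TPM fits shifted the median of all genes by -0.13 and -0.15 (log2), and log2 fold changes there are given relative to it. The p-values and calls of the TPM fits were not corrected for that shift.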

Other observations

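Downstream of beta-oxidation, genes of the respiratory chain and the tricarboxylic acid cycle had log2 fold changes on 1 side of 0. All 28 nuclear oxidative phosphorylation genes lay below 0 (median -0.12), where 49.7% of all genes did. Neither edgeR nor DESeq2 called any (0 of 28), and 2 were lower at an edgeR p under 0.05 before adjustment. Of all genes 6.18% reached that level in either direction. Ndufs1, a complex I subunit, averaged 207 ± 4.94 CPM over knockout and 233 ± 12.8 over wildtype libraries (SD, n = 4), and Sdhc, a complex II subunit, averaged 224 ± 13.7 and 251 ± 6.39 CPM. Knockout 2 was the lowest knockout library for 25 of the 28 genes and knockout 3 the highest for 23. Leaving out 1 library in turn, the median ran from -0.184 to -0.041. All 12 tricarboxylic acid cycle genes lay below 0 too (median -0.05), and 0 were called by edgeR or DESeq2 or had an edgeR p under 0.05 before adjustment. Suclg1, a succinyl-CoA ligase subunit, averaged 214 ± 31.7 and 228 ± 5.07 CPM.

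The 14 genes of fatty acid synthesis, the opposite pathway, had 10 log2 fold changes above 0 and 4 below (median 0.06). Over all genes 50.3% lay above 0. Of them 0 were called by edgeR or DESeq2 and 0 had an edgeR p under 0.05 before adjustment. Elovl5, which lengthens polyunsaturated chains, averaged 63.3 ± 1.87 and 59.3 ± 3.39 CPM for knockout and wildtype libraries, and Thrsp averaged 7.38 ± 3.75 and 5.22 ± 2.25 CPM.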
